A study of Mus musculus with 14 samples.

Results

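The 10 genes described here encode the inducible protein folding machinery of the mouse cell and the regulators of the unfolded protein response. They are 4 cytosolic chaperones (Hspa1a, Hspa1b, Hsp90aa1 and Dnajb1), 2 chaperones of the endoplasmic reticulum (ER; Hspa5 and Hsp90b1) and 4 regulators (Ddit3, Atf4, Xbp1 and Trib3). Members were taken by name, as the rows of a table of 54524 genes whose Ensembl identifiers carry these symbols in GENCODE vM21. The list of names was drawn up with earlier results of these data known. All 10 passed the filter on low counts, and the lowest count of a member in any sample was 170, for Trib3. Ddit3 has a second row in the table, an annotation of 105 exonic bases with 1 or 2 counts per sample, which was too low to be tested.

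The RNA came from liver sinusoidal endothelial cells (LSECs), the fenestrated cells that line the hepatic capillaries, from male Balb/c mice. They were sorted by their CD32 staining, and cells with F4/80 staining, UV autofluorescence or propidium iodide uptake were left out. The study's methods add CD45 to the markers that the sorted cells lacked. The healthy group (n = 4) was not injected. The other mice received 1 intraperitoneal dose of carbon tetrachloride (CCl4) in mineral oil, at 0.5 µL per gram of body weight, and their LSECs were taken after 1 day (n = 2), 3 days (n = 4) or 7 days (n = 4). Mice were 10 to 12 weeks old by the sample labels, while the study's methods give a somewhat older range. All came from the same strain with no genetic modification named. No group received mineral oil alone, so effects of the injection and of CCl4 cannot be told apart. The day 1 group has 2 samples because others did not meet the study's RNA quality standard. RNA was extracted from freshly sorted cells without culture, and each sample is a bulk library, in which fewer cells of a type and less RNA per cell cannot be told apart.

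Cells answer misfolded protein with separate programs for the cytosol and the ER. In the cytosol, misfolded proteins draw chaperones away from heat shock factor 1 (HSF1), which then binds heat shock elements and raises the transcription of HSP70 (Hspa1a and Hspa1b), inducible HSP90 (Hsp90aa1) and the HSP40 co-chaperone Dnajb1. In the ER, the sensors ATF6, IRE1 (Ern1) and PERK (Eif2ak3) are held by BiP, the product of Hspa5. ATF6 and the spliced form of XBP1 raise ER chaperones through ER stress response elements, while PERK phosphorylates eIF2α, which favours translation of ATF4. ATF4 in turn raises CHOP (Ddit3) and the pseudokinase Trib3. LSECs are known for heavy endocytic and lysosomal work, and HSP70 transcripts are also known to rise while tissue is digested and sorted.

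The sequences upstream of the HSP70 genes and of the ER chaperones are shown because they hold the elements through which these programs are known to act. RefSeq sequences of GRCm38.p6 were given for 9 of the 10 members (not for Hsp90aa1), and the 250 bases before each annotated start were searched. The heat shock element (GAANNTTC or TTCNNGAA) was found in Hspa1a and Hspa1b, at bases -104 to -97 from the start of each gene, and in 4218 of 32851 promoters of the same length (12.8%). The ER stress response element (CCAAT, then any 9 bases, then CCACG, on either strand) was found in Hspa5 and Hsp90b1 and in 37 of the 32851 promoters (0.113%). An ATF4 element (TGATGNAA, on either strand) was found in 0 of the 9 members and in 3.45% of all promoters. Such matches are descriptions of these windows and not measured binding sites. The windows lie at chr17:34972157-34972406 (Hspa1a), chr17:34959239-34959488 (Hspa1b) and chr10:86705445-86705694 (Hsp90b1) on the minus strand and at chr2:34771840-34772089 (Hspa5) on the plus strand. They are written 5′ to 3′, with the matched elements in capitals:
Hspa1a: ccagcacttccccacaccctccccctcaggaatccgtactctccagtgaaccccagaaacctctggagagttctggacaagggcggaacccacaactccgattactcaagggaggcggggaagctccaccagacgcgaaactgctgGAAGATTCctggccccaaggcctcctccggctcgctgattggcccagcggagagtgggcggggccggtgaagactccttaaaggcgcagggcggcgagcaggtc
Hspa1b: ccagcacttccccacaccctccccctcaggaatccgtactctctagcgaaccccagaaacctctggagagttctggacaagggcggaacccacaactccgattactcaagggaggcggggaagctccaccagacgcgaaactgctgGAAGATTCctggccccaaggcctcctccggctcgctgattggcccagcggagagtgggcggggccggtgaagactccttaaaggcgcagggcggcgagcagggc
Hspa5: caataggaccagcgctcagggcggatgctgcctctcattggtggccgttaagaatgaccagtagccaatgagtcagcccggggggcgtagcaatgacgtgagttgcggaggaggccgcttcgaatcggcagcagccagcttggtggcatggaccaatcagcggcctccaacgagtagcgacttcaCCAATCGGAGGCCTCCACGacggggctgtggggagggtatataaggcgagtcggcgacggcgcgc
Hsp90b1: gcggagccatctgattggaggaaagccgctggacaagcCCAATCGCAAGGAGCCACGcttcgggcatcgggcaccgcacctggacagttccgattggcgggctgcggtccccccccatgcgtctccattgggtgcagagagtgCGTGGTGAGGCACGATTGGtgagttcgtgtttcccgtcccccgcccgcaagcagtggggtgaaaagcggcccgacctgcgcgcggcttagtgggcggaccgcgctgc

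The element in Hspa5 lies at -65 to -47 from the RefSeq start. GENCODE vM21 places the start of Hspa5 further upstream, at chr2:34771970, so the element lies inside the gene as annotated there. Hsp90b1 holds the element at -212 to -194 and again, on the other strand, at -107 to -89. The Hspa1a and Hspa1b windows were identical at 247 of 250 bases, with the substitutions C44T, T47C and T249G from Hspa1a to Hspa1b, counted from 1 at the 5′ end of the window. The heat shock element was the same in both genes. Their coding sequences were 99.4% identical, and 68.0% of the 100-base windows of the Hspa1b coding sequence also occur in Hspa1a, so reads from the 2 genes could not always be told apart when the authors counted them. By contrast, Hspa1a and Hspa5, the cytosolic and ER forms of HSP70, shared 59.5% of aligned coding bases, and Hsp90aa1 and Hsp90b1 shared 54.9%.

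Counts per sample summed to between 46401496 and 103912264, and expression is given as CPM, the counts per 1000000 of the TMM-scaled library. Genes detected ran from 22986 in day 3 replicate 4 to 34768 in day 3 replicate 2. Mitochondrial genes took 3.04% of counts in healthy replicate 2 and up to 9.87% in day 7 replicate 3, which also had the lowest total. The part of these library differences in the results below was not tested. All 10 markers of LSECs (among them Stab2, Lyve1 and Clec4g) were detected in every sample, and their summed level ranged over 16313 to 19678 CPM in the healthy group, then 12416 to 15178, 10504 to 14435 and 9796 to 14130.5 CPM on the 3 successive days. The list did not move as one. At day 1 Lyve1 and Cdh5 were called higher (means of 387 and 289 CPM in the healthy group and 3209 and 604 CPM at day 1) and Kdr lower, and at day 3 Lyve1 was called higher and Fcgr2b lower. In all edgeR called 3, 2 and 0 of the 10 on the 3 days and DESeq2 6, 5 and 3. Markers of other liver cells were present too. The 10 monocyte and neutrophil markers summed to 521 to 1416 CPM in healthy samples and 4255 to 7964, 1385 to 13149 and 4198 to 9687 CPM after CCl4, and 3, 4 and 1 of them were called higher than in healthy LSECs on those days. The 10 stellate cell markers summed to 34.7 to 53.7, 31.9 to 50.6, 379 to 1328 and 145 to 3560.4 CPM in the same order, with 0, 8 and 9 called higher. The 10 hepatocyte markers ran from 216 to 9541 CPM in healthy samples, where replicate 4 held the highest value, and were 32.7 to 147, 949 to 3175 and 903 to 7246 CPM after CCl4, with a median log2 difference of -5.28 at day 1. All 10 were lower in the fit at day 1 with an unadjusted p under 0.05, and DESeq2 called 10, edgeR 1 (Hpd) and limma-voom 0. Of 8 Kupffer cell and 6 B and plasma cell markers, 0 were called by edgeR against healthy samples on any day (0, 2 and 1 and 2, 0 and 0 at an unadjusted p under 0.05, 0 by DESeq2 and 1, a Kupffer cell marker at day 7, by limma-voom), and Tat, of the hepatocyte list, was the only one of the 54 markers with a sample at 0 counts. The part of these cells in the results below was not tested.

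Of the 10 genes, 1 was called changed after CCl4. Atf4, the transcription factor of the PERK branch, fell at day 7 to a mean of 189 CPM from 369.9 CPM in healthy LSECs. None of the 4 cytosolic and 2 ER chaperones was called on any day by edgeR. A gene was called at an adjusted p under 0.05 in edgeR's quasi-likelihood test with Benjamini-Hochberg adjustment over 26626 genes. The p-values weigh a difference against the spread between samples of the same group. Each sample is taken here as 1 mouse. At day 1, 0 of the 10 members were called, where 4.06% of all genes tested were. At day 3 the count was 0 of 10, beside 7.19% of all genes. At day 7 it was 1 of 10, beside 3.18% of all genes. An unadjusted p under 0.05 was reached by 2, 3 and 3 members on the 3 days, beside 17.9%, 22.2% and 21.1% of all genes. On the same days DESeq2 called 1, 0 and 1 members and limma-voom with sample quality weights 1, 2 and 3. Over all genes DESeq2 called 2745, 3633 and 2602 of 44622 and limma-voom 4308, 7265 and 7047 of 26626. The edgeR fit was also run on simulated counts with known changes. Of 100 changes of 1 log2 unit it called 0 at day 1, 7 at day 3 and 7 at day 7. Of 100 changes of 2 log2 units it called 38, 44 and 53. The changed genes were drawn at random among genes of many levels, and they were far fewer than the genes called in the data. Adjustment is stricter in that setting, so these rates do not give the chance of calling a change in a member. A member that was not called may still have changed. The median log2 fold change of the members was -0.46 at day 1, -0.60 at day 3 and -0.57 at day 7, where the median over all genes tested was -0.03, 0.18 and 0.02. The values of every sample are plotted gene by gene.

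**Figure D1:**
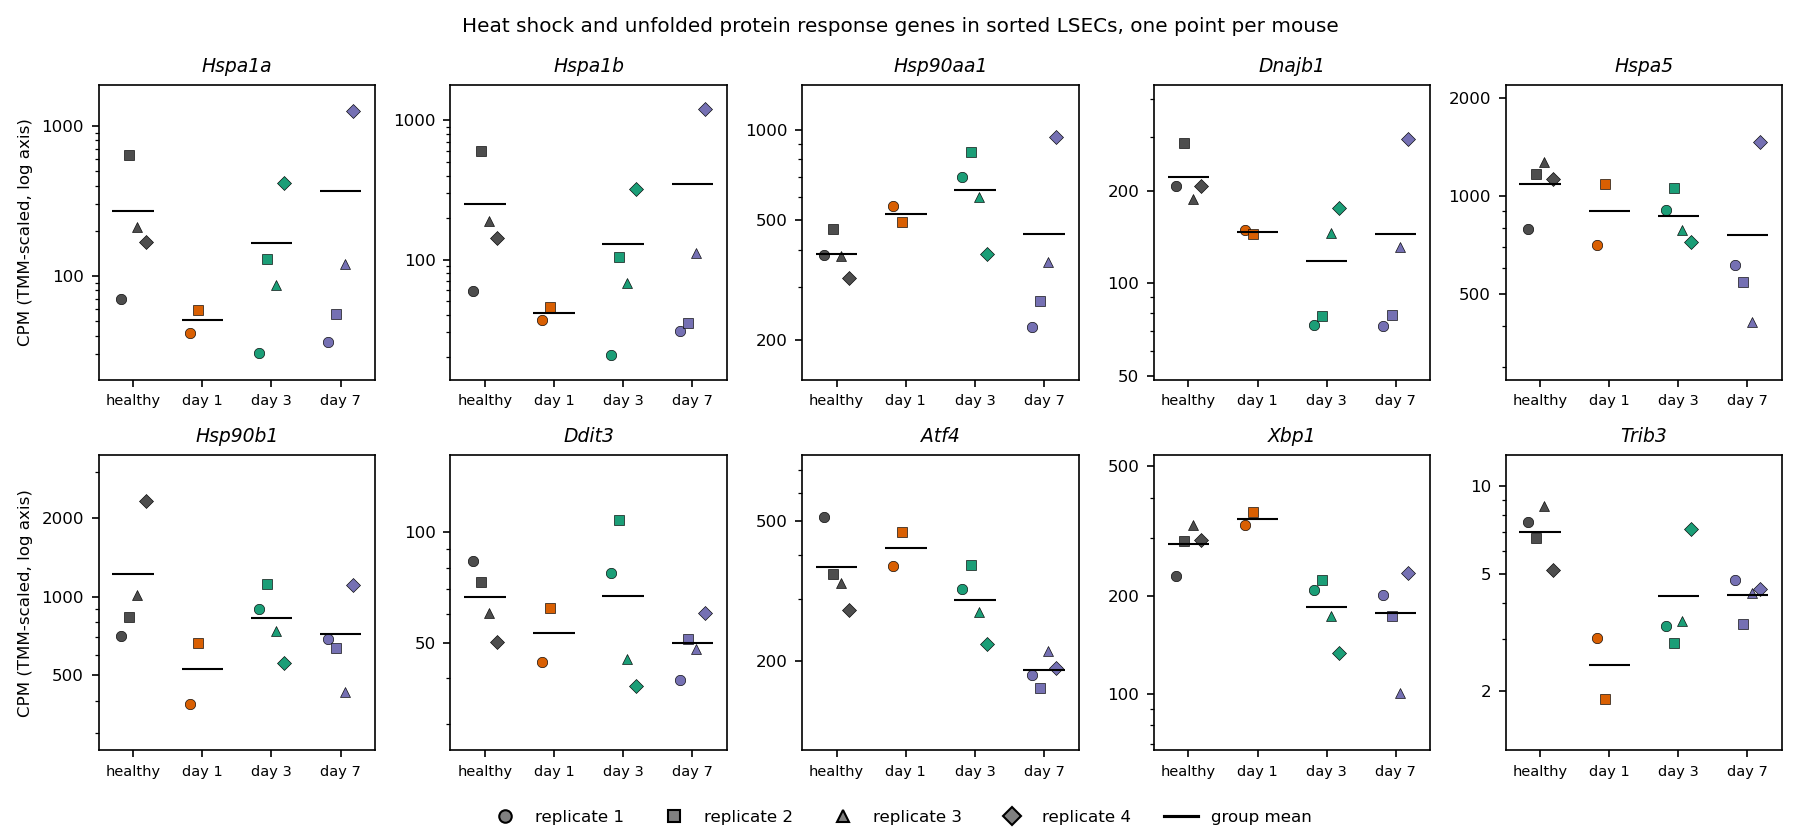
Expression of the 10 genes in each of the 14 samples (CPM on a log axis, TMM-scaled), with symbols for the replicate number in the labels and lines for the arithmetic group mean. Hspa1a and Hspa1b range from 30.4 to 1257 CPM and from 20.5 to 1210 CPM with the widest spread inside groups, while the 4 day 7 values of Atf4 lie together below all other samples.

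The HSP70 genes Hspa1a and Hspa1b varied more between mice than any other member. Hspa1a (chr17:34969190-34972156, minus strand, 1 exon in the longest transcript) had 70.3, 641, 211 and 169 CPM in the healthy samples, 41.4 and 59.7 CPM at day 1, 30.4, 129, 86.6 and 418 CPM at day 3 and 36.2, 55.5, 120.2 and 1257 CPM at day 7. Hspa1b (chr17:34956436-34959238, minus strand, 1 exon in the longest transcript), its neighbour on the chromosome, had 59.3, 607, 189 and 144 CPM in the healthy samples, 36.8 and 45.8 CPM at day 1, 20.5, 105, 68.4 and 322 CPM at day 3 and 30.6, 35.0, 112 and 1209.5 CPM at day 7. In both genes healthy replicate 2, day 3 replicate 4 and day 7 replicate 4 stood above the rest of their groups, and both day 1 samples lay below the lowest healthy sample. Over all 14 samples the highest value was 41.3 times the lowest for Hspa1a and 59.1 times for Hspa1b.

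Against healthy LSECs, Hspa1a gave log2 fold changes of -2.43 ± 1.45 (SE) at day 1, -0.71 ± 1.05 at day 3 and 0.43 ± 1.05 at day 7, with edgeR adjusted p = 0.436, 0.740 and 0.856. For Hspa1b the values were -2.60 ± 1.54, -0.95 ± 1.11 and 0.47 ± 1.10, with edgeR adjusted p = 0.432, 0.666 and 0.847. None of these differences passed the threshold. The sign at day 7 changed when day 7 replicate 4 was left out. When the counts of both genes were summed to 1 feature, so that the split of shared reads no longer mattered, the log2 fold change was -2.51 at day 1, -0.82 at day 3 and 0.45 at day 7 (edgeR adjusted p = 0.434, 0.705 and 0.851), and without day 7 replicate 4 the day 7 value was -2.02. Without healthy replicate 2 the summed values became -1.61, 0.07 and 1.35, and without day 3 replicate 4 the day 3 value was -1.93.

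The split between the 2 copies was steady. Hspa1a took 54.3, 51.3, 52.8 and 54.0% of their joint counts in the healthy samples, 52.9 and 56.6% at day 1, 59.8, 55.2, 55.9 and 56.5% at day 3 and 54.2, 61.3, 51.7 and 51.0% at day 7. The share thus stayed between 51.0% and 61.3% while the level itself moved by more than an order of magnitude. Hspa1a has 1 exonic overlap, with Gm20481 on the opposite strand, which had 0 counts in every sample.

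Dnajb1, the HSP40 partner that hands clients to HSP70, lies at chr8:83608193-83612653, plus strand, 4 exons in the longest transcript. It had 208, 287, 188 and 208 CPM in the healthy samples, 149 and 145 CPM at day 1, 73.3, 78.1, 146 and 176 CPM at day 3 and 72.7, 78.9, 131 and 297 CPM at day 7. Both day 1 values and all 4 day 3 values lay below the lowest healthy value, whereas day 7 replicate 4 exceeded every other sample. The difference from healthy LSECs was -0.60 ± 0.52 (log2, SE) at day 1, -0.92 ± 0.41 at day 3 and -0.62 ± 0.41 at day 7 (edgeR adjusted p = 0.628, 0.213 and 0.409), so it was not called on any day by edgeR. Limma-voom with sample quality weights gave -1.48 at day 3 (limma-voom adjusted p = 0.0167). Without day 7 replicate 4 the edgeR value at day 7 was -1.24.

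Hsp90aa1 encodes the inducible cytosolic HSP90, a chaperone of kinases and receptors, and lies at chr12:110690605-110702728, minus strand, 11 exons in the longest transcript. It had 385, 467, 379.9 and 321 CPM in the healthy samples, 558 and 493 CPM at day 1, 698, 847, 598 and 388 CPM at day 3 and 221, 270.1, 363 and 944 CPM at day 7. Both day 1 values lay above all healthy values, which made it the only member whose day 1 and healthy values were separate with the day 1 values higher, and 3 of the 4 day 3 values did as well. Its mean was 388 ± 59.9 CPM (SD, n = 4) in healthy LSECs and 633 ± 193 CPM (SD, n = 4) at day 3. The log2 difference was 0.44 ± 0.47, 0.70 ± 0.39 and 0.21 ± 0.39 on the 3 days (edgeR adjusted p = 0.721, 0.318 and 0.800), and without day 7 replicate 4 the day 7 value turned to -0.44. At day 3 the sign was opposite to that of Hspa1a, Hspa1b and Dnajb1, and the sample lowest in Hsp90aa1 at day 3, replicate 4, was the highest of its group in the other 3 cytosolic genes.

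Among the ER chaperones, Hspa5 (BiP, the HSP70 of the ER lumen) was the more even gene. It lies at chr2:34771970-34777547, plus strand, 7 exons in the longest transcript and had 791, 1167, 1268 and 1125 CPM in the healthy samples, 709 and 1091 CPM at day 1, 905, 1056, 787 and 725 CPM at day 3 and 615, 544, 409.9 and 1464 CPM at day 7. The lower day 1 value and 2 of the day 3 values lay below the lowest healthy value, and 3 of the 4 day 7 values lay below the lowest healthy value while replicate 4 lay above the highest. Its log2 difference from healthy LSECs was -0.27 ± 0.42 at day 1, -0.33 ± 0.34 at day 3 and -0.52 ± 0.34 at day 7 (edgeR adjusted p = 0.827, 0.628 and 0.400). Without day 7 replicate 4 the day 7 value was -1.04, still not called.

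Hsp90b1 (GRP94, the HSP90 of the ER lumen) lies at chr10:86690209-86705509, minus strand, 16 exons in the longest transcript. It had 705, 838, 1020.2 and 2330.1 CPM in the healthy samples, 387 and 667 CPM at day 1, 897, 1118, 739 and 556 CPM at day 3 and 693, 636, 434 and 1114 CPM at day 7. Healthy replicate 4 held the highest value of all 14 samples, and both day 1 values lay below every healthy value. The log2 difference was -1.21 ± 0.51 at day 1, -0.56 ± 0.39 at day 3 and -0.77 ± 0.39 at day 7 (edgeR adjusted p = 0.223, 0.443 and 0.279), and without healthy replicate 4 these values were -0.72, -0.17 and -0.23. That library also held the highest hepatocyte marker level of the healthy group, whose part in the Hsp90b1 value was not tested. Exons of Hsp90b1 overlap 1810014B01Rik, Gm15344 and Gm25745. Gm25745 had up to 8600 counts and 1810014B01Rik up to 6876, each highest in healthy replicate 4, where Hsp90b1 had 203573. Since the use of strand in counting is not stated, reads of these genes and of Hsp90b1 cannot be separated where they overlap.

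Cytosolic and ER chaperones were then compared inside each library. The mean log2 CPM of the 4 cytosolic genes minus that of the 2 ER genes was -2.46, -1.05, -2.30 and -3.01 in the healthy samples, -2.30 and -2.85 at day 1, -3.58, -2.65, -2.34 and -1.04 at day 3 and -3.33, -2.87, -1.41 and -0.66 at day 7. The group means were -2.21 ± 0.83, -2.58 ± 0.39, -2.40 ± 1.05 and -2.07 ± 1.25 (SD, n = 4, 2, 4 and 4), so the ranges of all 4 groups overlapped and the differences from healthy LSECs (-0.37, -0.20 and 0.14) were smaller than the SD of the healthy group. Leaving out a sample moved the day 1 difference between -0.65 and 0.01, the day 3 difference between -0.65 and 0.20 and the day 7 difference between -0.33 and 0.56. No test was made of this score.

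Counts were also compared directly within each library. The joint counts of Hspa1a and Hspa1b per 1000 counts of Hspa5 were 164, 1069.7, 315 and 278 in the healthy samples, 110.4 and 96.7 at day 1, 56.3, 222, 197 and 1021 at day 3 and 109, 166, 567 and 1684 at day 7. The highest ratio, in day 7 replicate 4, and the lowest, in day 3 replicate 1, were both from injured livers, and each of the groups with 4 samples held a sample above 1000. The ratio does not depend on how libraries were scaled.

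**Figure D2:**
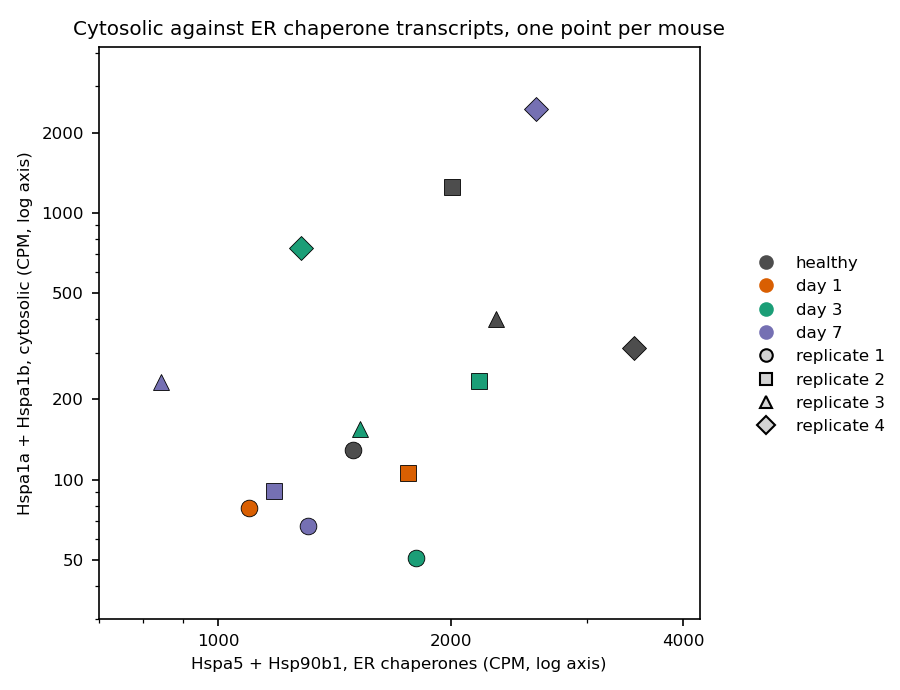
Summed CPM of the cytosolic HSP70 genes Hspa1a and Hspa1b (vertical log axis) against the summed CPM of the ER chaperones Hspa5 and Hsp90b1 (horizontal log axis), with 1 point per sample, colours for the groups and symbols for the replicate number. The HSP70 sum runs from 50.9 to 2467 CPM and the ER sum from 844 to 3455 CPM, and samples of all groups are mixed along the vertical axis. Both day 1 samples lie low, at 78.2 and 106 CPM, as do day 3 replicate 1 (50.9 CPM) and day 7 replicates 1 and 2 (66.9 and 90.5 CPM).

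Day 7 replicate 4 stood out for most folding genes. It held the highest value of its group in 4 of 4 cytosolic members, with a median of 13.2 times the median of the other 3 samples, in 2 of 2 ER members (2.22 times) and in 2 of 4 regulators (1.15 times). Among all 26626 genes tested it was the highest of the group in 20.0%. Of 20 other heat shock genes it was highest in 18 (2.19 times), and of 24 other genes of ER folding and degradation in 17 (1.54 times). Its summed LSEC markers (12938 CPM), hepatocyte markers (2458 CPM) and stellate markers (990.4 CPM) lay inside the range of the other day 7 samples, while its Kupffer marker sum (1682 CPM) was the highest and its monocyte and neutrophil sum (4198 CPM) the lowest of the group. The part of these marker differences in the chaperone levels of this library was not tested.

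Genes known to rise during tissue dissociation were followed beside the heat shock genes, because isolation of LSECs includes a digestion. The mean log2 CPM of 10 such genes, Fos, Jun and Egr1 among them, was 10.67, 10.69, 10.57 and 10.70 in the healthy samples, 9.99 and 10.16 at day 1, 9.77, 9.67, 10.07 and 10.32 at day 3 and 10.12, 9.90, 9.89 and 10.15 at day 7. In this mean every healthy sample lay above every sample from an injured liver. Single genes went their own way, as with Egr1 (means of 1779 CPM in the healthy group and 1916 CPM at day 3) and Ier3 (1069 CPM against 1201 at day 1 and 1294 at day 3). Healthy replicates 1 and 2, at 70.3 and 641 CPM of Hspa1a, were close to each other in the mean, which was highest in healthy replicate 4. At day 1 (replicate 2, 10.16), day 3 (replicate 4, 10.32) and day 7 (replicate 4, 10.15) the sample highest in the mean was also highest in Hspa1a. At day 7 the next mean was 10.12. Of the 10 genes, edgeR called 0, 3 and 1 lower at days 1, 3 and 7 and 0 higher, while 6, 7 and 7 had an unadjusted p under 0.05 and DESeq2 called 3, 6 and 4. The part of this difference in the heat shock genes was not tested.

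The spread between mice of the same group was set beside that of other genes. The within-group SD of log2 CPM was 1.68 for Hspa1a and 1.79 for Hspa1b, above that of 99.2% and 99.4% of 9987 genes with a mean log2 CPM of at least 3, whose median SD was 0.35. Dnajb1 (0.63), Hsp90b1 (0.60), Hsp90aa1 (0.59) and Hspa5 (0.50) followed. The regulators were steadier, with 0.45 for Ddit3, 0.41 for Trib3, 0.37 for Xbp1 and 0.29 for Atf4, the last above that of only 34.9% of those genes.

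**Figure D3:**
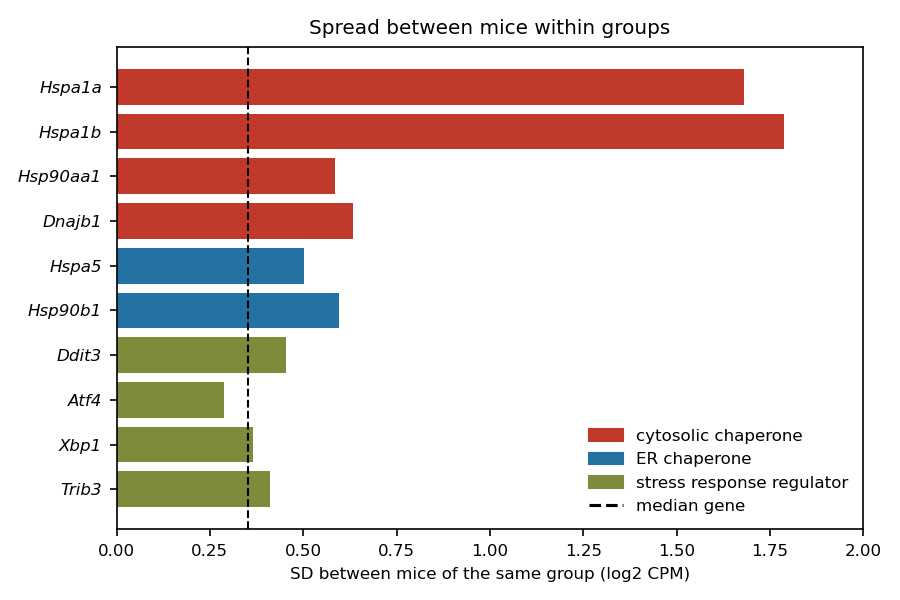
Within-group SD of log2 CPM (horizontal axis), pooled over the 4 groups, for the 10 genes, coloured by class, with a dashed line at the median of 9987 genes (0.35). Hspa1a (1.68) and Hspa1b (1.79) exceed all other members, and Atf4 (0.29) alone lies below the median.

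Among the regulators, Atf4 carried the only called change. It encodes the transcription factor of the integrated stress response, whose protein is controlled largely at translation, and lies at chr15:80255184-80257541, plus strand, 1 exon in the longest transcript. It had 514, 355, 333 and 279 CPM in the healthy samples, 373 and 465 CPM at day 1, 320.4, 374, 276 and 223 CPM at day 3 and 182, 167, 214 and 191 CPM at day 7. All 4 day 7 values lay below the lowest value of every other group, with means of 369.9 ± 101 CPM (SD, n = 4) in healthy LSECs, 419 ± 65.1 CPM (SD, n = 2) at day 1, 299 ± 64.2 CPM (SD, n = 4) at day 3 and 189 ± 19.7 CPM (SD, n = 4) at day 7.

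The fall of Atf4 at day 7 was 1.96-fold against healthy LSECs (log2 fold change -0.97 ± 0.21 (SE), edgeR adjusted p = 0.0287) and 2.22-fold against day 1 (log2 fold change -1.15 ± 0.25 (SE), edgeR adjusted p = 0.0152). The day 7 call against healthy LSECs stood beside 0.992% of all genes called lower and 12.1% of all genes with day 7 values below all healthy values. Against day 1, 1 of 10 members was called, beside 8.04% of all genes. Day 1 and day 3 were not called against healthy LSECs (0.18 ± 0.26 and -0.31 ± 0.21 on the log2 scale, edgeR adjusted p = 0.808 and 0.434), and day 7 differed from day 3 by -0.66 ± 0.21 (edgeR adjusted p = 0.138). The call against healthy LSECs was lost without healthy replicate 1, 2 or 3 (edgeR adjusted p = 0.0928, 0.0725 and 0.0641) and without day 7 replicate 2 or 4 (0.106 and 0.0516), with log2 fold changes between -1.06 and -0.77 over all samples left out. The call against day 1 was lost without day 1 replicate 1 or 2 (edgeR adjusted p = 0.0771 and 0.150). For day 7 against healthy LSECs, DESeq2 gave an adjusted p of 0.000744 and limma with voom 0.00171. The monocyte and neutrophil, stellate and LSEC marker sums also differed between day 7 and healthy samples, as given above, and their part in the Atf4 difference was not tested.

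Xbp1, whose transcript is spliced by IRE1 to give the active factor, lies at chr11:5520659-5525893, plus strand, 4 exons in the longest transcript. It had 229, 294, 330.3 and 295 CPM in the healthy samples, 328 and 360.2 CPM at day 1, 208, 224, 174 and 133 CPM at day 3 and 201, 173, 101 and 234 CPM at day 7. All 4 day 3 values lay below the lowest healthy value, both day 1 values lay above all day 3 and day 7 values, and day 7 overlapped the healthy range with replicate 4. The log2 difference from healthy LSECs was 0.26 ± 0.29 at day 1, -0.64 ± 0.24 at day 3 and -0.70 ± 0.24 at day 7 (edgeR adjusted p = 0.739, 0.138 and 0.127). Day 7 was -0.96 ± 0.29 against day 1 (edgeR adjusted p = 0.0580, DESeq2 adjusted p = 0.0406). Limma-voom with sample quality weights gave -0.80 for day 7 against healthy LSECs (limma-voom adjusted p = 0.0146). Gene counts do not separate the spliced from the unspliced form, so they hold no reading of IRE1 activity.

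Trib3, a pseudokinase and target of ATF4 and CHOP, lies at chr2:152337422-152344032, minus strand, 4 exons in the longest transcript and was the member with the lowest expression. It had 7.54, 6.66, 8.53 and 5.16 CPM in the healthy samples, 3.03 and 1.87 CPM at day 1, 3.31, 2.91, 3.46 and 7.17 CPM at day 3 and 4.78, 3.38, 4.32 and 4.46 CPM at day 7. Both day 1 values lay below every healthy and every day 7 value and overlapped the lowest day 3 values, and all day 7 values lay below the lowest healthy value, while day 3 overlapped the healthy range with replicate 4 alone. At day 1 the level was 2.85-fold lower than in healthy LSECs (log2 fold change -1.51 ± 0.42 (SE), edgeR adjusted p = 0.0605), just outside the threshold. DESeq2, the tool named in the study's methods, gave an adjusted p of 0.00281 for the same difference, and limma with voom 0.000771, and without day 3 replicate 4 edgeR gave 0.0109. The differences at day 3 and day 7 were -0.73 ± 0.32 and -0.72 ± 0.32 (edgeR adjusted p = 0.194 and 0.215). Limma-voom with sample quality weights gave -1.15 and -0.76 (limma-voom adjusted p = 0.00523 and 0.0145).

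Ddit3 (CHOP, the factor linked to cell death under prolonged ER stress) lies at chr10:127290774-127296288, plus strand, 4 exons in the longest transcript. Its values ran from 50.3 to 83.3 CPM in healthy LSECs, 44.3 and 62.1 CPM at day 1, from 38.2 to 108 CPM at day 3 and from 39.7 to 60.4 CPM at day 7. The groups overlapped on every day, and the log2 difference was -0.33 ± 0.37, 0.011 ± 0.30 and -0.42 ± 0.30 (edgeR adjusted p = 0.740, 0.988 and 0.441), with a day 3 value between -0.29 and 0.14 when single samples were left out. Its exons overlap those of Mars and Gm4189 on the opposite strand, with up to 4473 and 67 counts beside 2180 to 8345 counts of Ddit3.

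**Figure D4:**
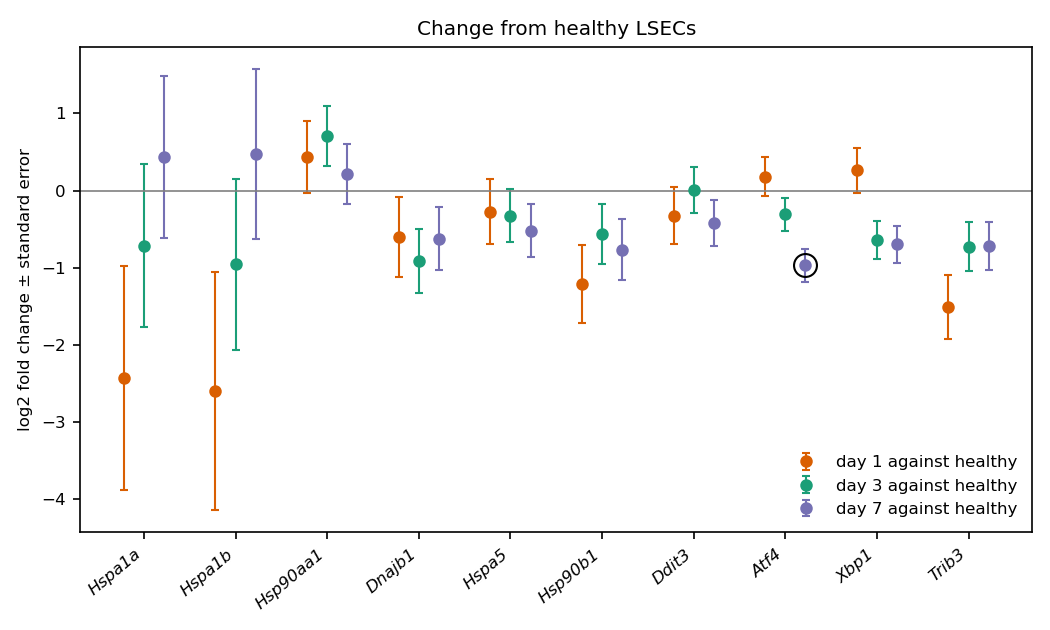
Log2 fold change against healthy LSECs (vertical axis, ± SE from edgeR) for the 10 genes at day 1 (n = 2), day 3 (n = 4) and day 7 (n = 4), each against 4 healthy samples. The single ringed point, Atf4 at day 7 (-0.97 ± 0.21), has an adjusted p under 0.05, and the widest error bars belong to Hspa1a and Hspa1b.

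Separation of the groups without regard to size was counted as well. At day 1, 6 of 10 members had no overlap with the healthy samples, beside 37.9% of all genes, a high share because the group has 2 samples. Hsp90aa1 was the 1 that was higher (20% of all genes), and Hspa1a, Hspa1b, Dnajb1, Hsp90b1 and Trib3 were the 5 that were lower (17.9%). At day 3 there were 2, Dnajb1 and Xbp1, both lower, beside 14.4% of all genes in either direction and 6.84% lower. At day 7 there were 2, Atf4 and Trib3, both lower, beside 20.8% in either direction and 12.1% lower.

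The later days were also set against each other. From day 1 to day 3, 0 members were called (2.54% of all genes), 1 reached an unadjusted p under 0.05 in edgeR (15.8%), and 0 were called by DESeq2 or limma-voom. Over all genes DESeq2 called 2314 of 44622 there and limma-voom 3344 of 26626. Xbp1 alone did not overlap, and was lower (21.8% of all genes in either direction, 10.4% lower). From day 1 to day 7, 1 member was called by edgeR, Atf4 (8.04% in either direction, 4.4% lower), and 2 reached an unadjusted p under 0.05 in edgeR (24.6%). DESeq2 called 2, beside 4468 of 44622 genes, and limma-voom 3, beside 7610 of 26626 genes. Trib3 was separate and higher (20.4% of all genes), and Atf4 and Xbp1 were separate and lower (23.1%), 3 members in all beside 43.5%. From day 3 to day 7, 0 were called (1.77%) and 1 reached an unadjusted p under 0.05 in edgeR (18.8%). DESeq2 called 0, beside 1663 of 44622 genes, and limma-voom 2, beside 6002 of 26626 genes. Atf4 alone did not overlap, and was lower (7.91% in either direction, 4.15% lower). The comparisons with healthy LSECs share the same 4 healthy samples.

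Relative to transcript length the ER chaperones had the highest means of the members in healthy LSECs. On a scale of CPM per kilobase of exon, the healthy mean and range were 303 (175 to 578) for Hsp90b1, 257 (187 to 299.8) for Hspa5, 157 (118 to 218) for Atf4, 98.8 (81.8 to 119) for Hsp90aa1, 91.9 (23.7 to 216) for Hspa1a, 89.1 (21.2 to 217) for Hspa1b and 88.4 (70.5 to 102) for Xbp1. Dnajb1 followed with 69.6 (58.8 to 89.6), Ddit3 with 38.9 (29.3 to 48.6) and Trib3 with 3.28 (2.43 to 4.01). Each gene overlapped its neighbour in this order from Hsp90b1 down to Dnajb1, whereas the healthy ranges of Dnajb1, Ddit3 and Trib3 did not overlap one another. In healthy replicate 1, Atf4 (218) lay above Hspa5 (187) and Hsp90b1 (175). In healthy replicate 2, Hspa1a (216) and Hspa1b (217) lay above Hsp90b1 (208). At day 7 the place of the HSP70 genes rested on replicate 4. On this scale the 4 day 7 samples had 12.2, 18.7, 40.5 and 424 for Hspa1a and 10.9, 12.5, 40.02 and 432 for Hspa1b, so that replicate 4 lay above the 346 of Hspa5 in the same library.

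The profile most like that of Hspa1a over the 14 samples was that of Hspa1b, with a root mean square difference of 0.17 in centred log2 CPM, where the root mean square of the Hspa1a profile itself was 1.55. Outside the members the 5 nearest were Hsph1 (0.66), Gm10501 (0.70), Gm47468 (0.95), Mir7063 (0.96) and Gm20402 (1.03). Hsph1 encodes HSP110, an exchange factor of HSP70, and had 29.5, 139.9, 62.7 and 57.6 CPM in the healthy samples, 17.9 and 28.4 CPM at day 1, 25.0, 47.4, 43.5 and 49.0 CPM at day 3 and 19.0, 25.0, 33.6 and 302 CPM at day 7, with the libraries highest in Hspa1a also at the top of the healthy, day 3 and day 7 groups. Gm10501 is an annotated antisense gene on the same chromosome, near Hspa1a, and the other 3 stayed at or below 0.361 CPM. Dnajb1 ranked 28th among all genes, Hspa5 973rd and Hsp90aa1 3596th.

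For Hspa5 the 5 nearest genes were Gm8326 (0.21), Dnajb11 (0.23), Ahsa1 (0.25), P4ha1 (0.27) and Gm9845 (0.27), where the root mean square of the Hspa5 profile was 0.50. Dnajb11 is an ER co-chaperone of BiP, P4ha1 a collagen prolyl hydroxylase of the ER and Ahsa1 a cytosolic co-chaperone of HSP90. Gm8326 and Gm9845 are annotated as processed pseudogenes. Among the members, Xbp1 ranked 53rd (0.37) and Hsp90b1 561st (0.45). These differences describe 14 samples, and the genes share the libraries in which they were measured.

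Further genes of both programs were followed beside the members. Of 20 other heat shock genes, among them Hspa8, Hspb1, Bag3 and Hsf1, 0 were called by edgeR at day 1, day 3 or day 7 (2, 1 and 1 at an unadjusted p under 0.05, 0 by DESeq2 and 1, 2 and 2 by limma-voom), and 15, 14 and 16 of them lay below zero, with medians of -0.22, -0.18 and -0.30 (log2) beside -0.03, 0.18 and 0.02 over all genes. Hsf1, the factor behind the program, had a log2 difference of -0.17 ± 0.30, -0.081 ± 0.24 and -0.41 ± 0.24 (edgeR adjusted p = 0.856, 0.881 and 0.345). Of 24 other genes of ER folding and ER-associated degradation, edgeR called 0 at day 1, 2 at day 3 and 0 at day 7 (3, 5 and 5 at an unadjusted p under 0.05, 0, 2 and 0 by DESeq2 and 1, 6 and 5 by limma-voom). Over all genes edgeR called 4.06%, 7.19% and 3.18% on these days. DESeq2 called 2745, 3633 and 2602 of 44622 genes and limma-voom 4308, 7265 and 7047 of 26626. At day 7, 21 of the 24 lay below zero, with a median of -0.37 beside 0.02 over all genes.

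The 2 genes called at day 3 both serve ER-associated degradation and moved apart. Edem1, a lectin that marks misfolded glycoproteins, rose and had 27.1, 35.5, 42.6 and 43.4 CPM in the healthy samples, 51.5 and 59.2 CPM at day 1, 69.5, 84.7, 63.5 and 70.5 CPM at day 3 and 43.8, 63.9, 40.5 and 59.3 CPM at day 7. All day 3 values lay above all healthy values (log2 fold change 0.96 ± 0.20 (SE), edgeR adjusted p = 0.0128), and without a filter on low counts the adjusted p was 0.0621. Herpud1, which organises the degradation complex at the ER membrane, fell and had 179, 227, 151 and 159 CPM in the healthy samples, 126 and 155 CPM at day 1, 95.4, 109, 91.5 and 81.4 CPM at day 3 and 132, 81.4, 68.0 and 161 CPM at day 7. All day 3 values lay below all healthy values (log2 fold change -0.92 ± 0.25 (SE), edgeR adjusted p = 0.0419). The Herpud1 call was lost in 7 of 22 alternative fits, with an edgeR adjusted p of up to 0.124 without healthy replicate 2.

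Of 4 ER stress sensors edgeR called 1 against healthy LSECs, at day 1. Atf6, the sensor that is itself cut to release a transcription factor, rose at day 1 and had 53.4, 53.5, 55.7 and 52.9 CPM in the healthy samples, 97.6 and 105 CPM at day 1, 62.3, 59.9, 74.6 and 76.9 CPM at day 3 and 61.7, 54.5, 61.6 and 61.1 CPM at day 7. Both day 1 values lay above all other samples (log2 fold change 0.91 ± 0.16 (SE), edgeR adjusted p = 0.00537), and day 7 was below day 1 (log2 fold change -0.77 ± 0.16 (SE), edgeR adjusted p = 0.0113). The rise was 0.93 without day 1 replicate 1 and 0.83 without day 1 replicate 2, and was called in neither case (edgeR adjusted p = 0.163 and 0.132). Ern1 had log2 differences of 0.17, 0.50 and 0.61 and Eif2ak3 of -0.13, -0.56 and -0.32 on the 3 days, with edgeR adjusted p from 0.192 to 0.914. DESeq2 called 1, 0 and 0 of the 4 sensors (2745, 3633 and 2602 of 44622 genes) and limma-voom 1, 2 and 1 (4308, 7265 and 7047 of 26626). Limma-voom gave -1.13 for Eif2ak3 at day 3 (adjusted p = 0.00266) and 0.68 for Ern1 at day 7 (adjusted p = 0.00868). Without day 3 replicate 4 edgeR gave -0.99 for Eif2ak3 at day 3 (adjusted p = 0.0208).

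Of 22 known targets of the ATF4 and CHOP branch, 5 rose and 1 fell at day 1, 5 rose and 0 fell at day 3, and edgeR called 0 at day 7, with medians of 0.30, 0.17 and -0.15 (log2). Over all genes tested, 4.06%, 7.19% and 3.18% were called on these days and the medians were -0.03, 0.18 and 0.02. At day 7, 10 of the 22 had an unadjusted p under 0.05, beside 21.1% of all genes. DESeq2 called 6, beside 2602 of 44622 genes, and limma-voom 9, beside 7047 of 26626 genes. Slc7a11, the cystine importer, had 0.828, 1.23, 0.905 and 1.04 CPM in the healthy samples, 34.5 and 12.9 CPM at day 1, 10.5, 6.19, 2.51 and 2.06 CPM at day 3 and 4.31, 3.37, 2.58 and 2.35 CPM at day 7. It rose at day 1 (log2 fold change 4.56 ± 0.58 (SE), edgeR adjusted p = 0.000761) and at day 3 (log2 fold change 2.40 ± 0.50 (SE), edgeR adjusted p = 0.0126). All values after CCl4 lay above all healthy values. Within day 1 and day 3 the samples had the same order in Slc7a11 as in the monocyte and neutrophil marker sum. That sum was 7964 and 4255 CPM at day 1 and 13149, 7955, 1497 and 1385 CPM at day 3. Within the healthy group and day 7 the 2 orders differed. The part of these cells in the Slc7a11 difference was not tested.

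Enzymes of amino acid and one-carbon metabolism were called as well. Asns, asparagine synthetase, had 1.08, 0.963, 0.770 and 1.03 CPM in the healthy samples, 9.87 and 4.997 CPM at day 1, 5.25, 7.84, 5.08 and 4.08 CPM at day 3 and 2.73, 2.62, 1.34 and 1.48 CPM at day 7. It rose at day 1 (log2 fold change 2.95 ± 0.39 (SE), edgeR adjusted p = 0.000931) and at day 3 (log2 fold change 2.53 ± 0.35 (SE), edgeR adjusted p = 0.00200). Mthfd2, the mitochondrial folate enzyme, went from a mean of 3.98 CPM in healthy LSECs to 15.1 CPM at day 1 (log2 fold change 1.92 ± 0.38 (SE), edgeR adjusted p = 0.0115) and 18.3 CPM at day 3 (log2 fold change 2.20 ± 0.34 (SE), edgeR adjusted p = 0.00281). Psat1, of serine synthesis, went from 1.48 CPM to 10.3 CPM at day 3 (log2 fold change 2.79 ± 0.42 (SE), edgeR adjusted p = 0.00273), while its day 1 level of 3.49 CPM was not called (log2 fold change 1.23 ± 0.47 (SE), edgeR adjusted p = 0.175). Day 7 was below day 1 for Slc7a11 (log2 fold change -2.91 ± 0.56 (SE), edgeR adjusted p = 0.00813), Asns (log2 fold change -1.86 ± 0.39 (SE), edgeR adjusted p = 0.0123) and Mthfd2 (log2 fold change -1.48 ± 0.38 (SE), edgeR adjusted p = 0.0309), and below day 3 for Asns (log2 fold change -1.44 ± 0.34 (SE), edgeR adjusted p = 0.0481) and Mthfd2 (log2 fold change -1.76 ± 0.33 (SE), edgeR adjusted p = 0.0206).

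Atf3 and Ero1l were called against healthy LSECs at day 1. Ero1l, the oxidase that drives disulfide formation in the ER, rose from 40.9 to 77.9 CPM (log2 fold change 0.93 ± 0.18 (SE), edgeR adjusted p = 0.0112), and its day 3 and day 7 levels were below day 1 (-0.89 ± 0.18 and -1.20 ± 0.18, edgeR adjusted p = 0.0225 and 0.00223). Atf3, a stress factor downstream of ATF4 that is also an immediate-early gene, fell and had 996, 1116, 747 and 617 CPM in the healthy samples, 215 and 295 CPM at day 1, 617, 620.1, 405 and 391 CPM at day 3 and 385, 358, 499 and 628 CPM at day 7. Both day 1 values lay below all other samples (log2 fold change -1.77 ± 0.34 (SE), edgeR adjusted p = 0.0101). Without day 1 replicate 1 the day 1 calls of Atf3, Ero1l and Mthfd2 were lost (edgeR adjusted p = 0.178, 0.524 and 0.251), and without day 1 replicate 2 that of Ero1l (0.0698), which was also lost without healthy replicate 4 (0.0757). Whether the day 1 change of Atf3 differs from that at day 7 was tested and not called (edgeR adjusted p = 0.113). The other genes called were Cebpb at day 1 and Nupr1 at day 3, both higher, which are named here after their values were seen.

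**Figure D5:**
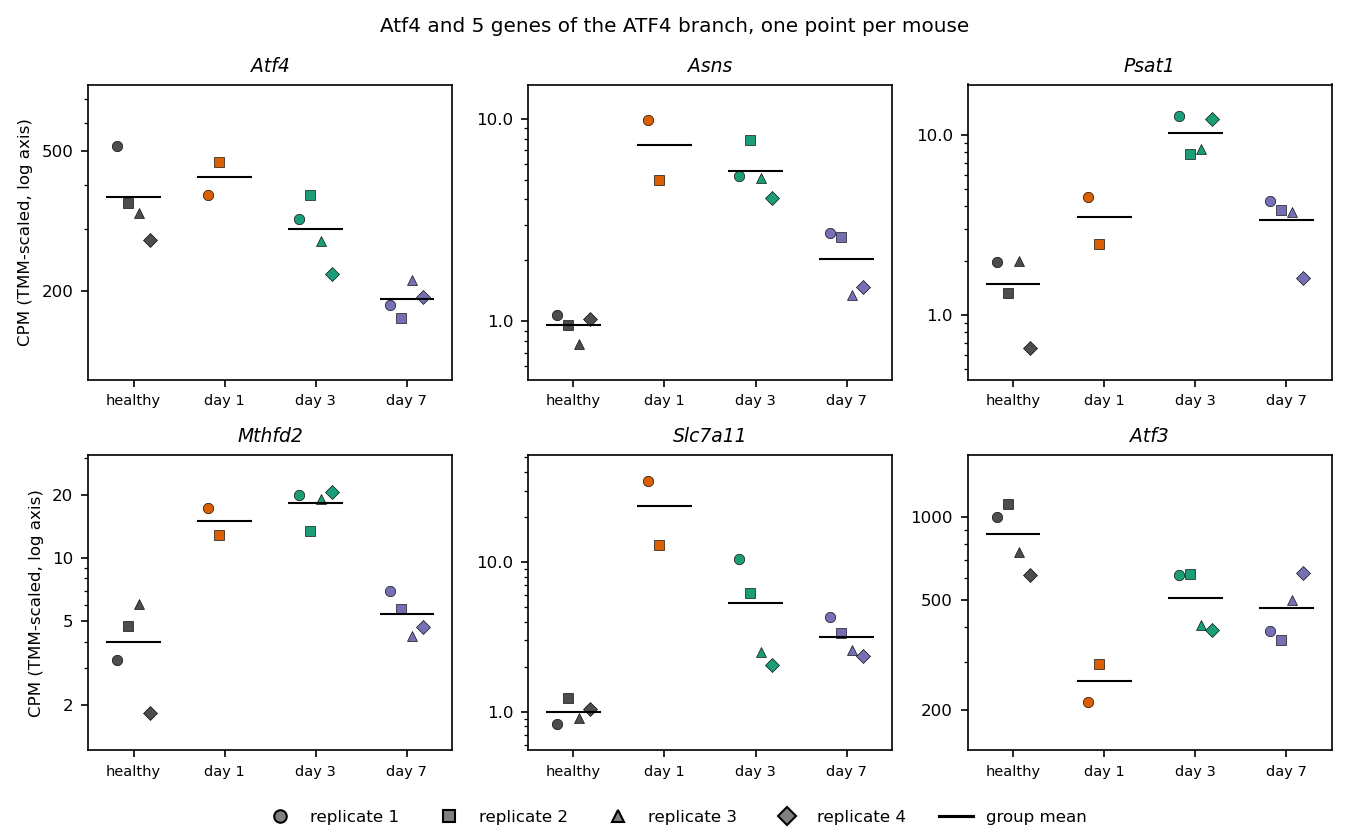
CPM (log axis, TMM-scaled) of Atf4 and of Asns, Psat1, Mthfd2, Slc7a11 and Atf3 in each sample, with symbols for the replicate number and lines for the arithmetic group mean. Asns, Mthfd2 and Slc7a11 are higher at day 1 and day 3 than in the healthy samples (mean Asns 0.960 CPM in the healthy group against 7.43 and 5.56 CPM), while Atf4 itself is lowest at day 7 and Atf3 lowest at day 1.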

How the data were processed

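RNA of 14 LSEC samples was sequenced by the authors from SMART-Seq v4 libraries. Per the study's methods, reads were aligned to GRCm38.p6 with STAR and quantified with StringTie, and the deposited table holds whole-number counts per Ensembl gene with no normalization. The annotation release and the use of strand in counting are not given in the sources used here. Symbols came from GENCODE vM21, which matched 54495 of 54524 identifiers.

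Counts were analysed with edgeR 4.0.16 in R 4.3.3. Genes were kept with filterByExpr (minimum count 10, total 15), libraries were scaled with TMM, and a single quasi-likelihood model of 4 group means gave 6 comparisons, adjusted by Benjamini-Hochberg over 26626 genes with a threshold of 0.05. Log2 CPM used a prior count of 2. The alternatives were DESeq2 1.42.0 (44622 genes), limma 3.58.1 with voom and sample quality weights, and RLE or no scaling. Other filters, only the 2 groups compared, the replicate number as a block and leaving out each sample were alternatives too. Scripts were tested on simulated data. No 2 samples held identical counts.

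Besides the members, the text names up to 4 called genes with the lowest adjusted p per list and comparison with healthy LSECs, the sensors and Hsf1, and the 5 non-members nearest to Hspa1a and to Hspa5. The members and the gene lists were chosen with earlier results of these data known.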

Additional observations from a re-analysis of the deposited data

Results flagged for a closer look

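In 5 of 69 groups of 4 samples for the genes named here, 1 sample stood far from the other 3 by Dixon's criterion, which chance alone meets in about 1 of 20 groups. Hspa1a reached 1257 CPM in day 7 replicate 4, where the next value of the group was 120.2 CPM. Hspa1b reached 1209.5 CPM in the same library, where the next value was 112 CPM. Eif2ak3, which encodes the sensor PERK, was at 21.3 CPM in that library too, with the next value at 15.5 CPM. Trib3 was at 7.17 CPM in day 3 replicate 4, the library with the fewest genes detected (22986), with the next value at 3.46 CPM. Atf6 was lowest in day 7 replicate 2, at 54.5 CPM, with the next value at 61.1 CPM.

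The change from healthy LSECs differed between days for several genes in edgeR's quasi-likelihood test of the days against each other. From day 1 to day 7 the log2 difference was -1.15 for Atf4 (edgeR adjusted p = 0.0152), -0.77 for Atf6 (0.0113), -2.91 for Slc7a11 (0.00813), -1.86 for Asns (0.0123), -1.20 for Ero1l (0.00223) and -1.48 for Mthfd2 (0.0309). From day 1 to day 3 it was -0.89 for Ero1l (edgeR adjusted p = 0.0225). From day 3 to day 7 it was -1.44 for Asns (edgeR adjusted p = 0.0481) and -1.76 for Mthfd2 (0.0206). In each of these comparisons the later day was the lower one.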

How the results depend on the processing

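The 2 called changes of a member, Atf4 at day 7 against healthy LSECs and against day 1, kept their direction in every alternative fit and their call in most. Against healthy LSECs edgeR's adjusted p was 0.0542 with the replicate number as a block and up to 0.106 without day 7 replicate 2. Against day 1 it was 0.0629 with the block, 0.0771 without day 1 replicate 1 and 0.150 without day 1 replicate 2. Of 1422 member results in the alternatives, 1321 kept their direction and their side of the threshold, 9 lost their call, 19 gained one and 73 changed sign, in 23 distinct results, 0 of them called in the first place. Where a value changed, the cause was not tested. When a day 1 sample is left out, the lone sample is assumed to vary like the other groups. Counts of the members were 170 or more in every sample. The differences of cytosolic and ER means moved by less than the spread between samples with a prior count of 0.5 and without Hspa1b (then -0.023, -0.024 and 0.19 against healthy LSECs), and scaling by library size cancels in them.

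With DESeq2, the number of genes called was 2745 (day 1 against healthy LSECs), 3633 (day 3 against healthy LSECs), 2602 (day 7 against healthy LSECs), 2314 (day 3 against day 1), 4468 (day 7 against day 1) and 1663 (day 7 against day 3). The number of members called was 1 (day 1 against healthy LSECs) and 2 (day 7 against day 1). Sign changes gave log2 differences of 0.020 (Dnajb1, day 7 against day 1). With limma-voom and sample quality weights, the number of genes called was 4308 (day 1 against healthy LSECs), 7265 (day 3 against healthy LSECs), 7047 (day 7 against healthy LSECs), 3344 (day 3 against day 1), 7610 (day 7 against day 1) and 6002 (day 7 against day 3). The number of members called was 1 (day 1 against healthy LSECs), 2 (day 3 against healthy LSECs), 3 (day 7 against healthy LSECs), 3 (day 7 against day 1) and 2 (day 7 against day 3). Log2 differences that changed sign were 0.0016 (Hsp90b1, day 3 against healthy LSECs), -0.13 (Ero1l, day 3 against healthy LSECs), -0.34 (Hspa1a, day 7 against healthy LSECs), -0.42 (Hspa1b, day 7 against healthy LSECs), 0.13 (Hspa5, day 3 against day 1) and 0.028 (Dnajb1, day 7 against day 1). With RLE size factors, the log2 difference changed sign to 0.027 (Dnajb1, day 7 against day 1). With library size as the only scaling, 287 genes were called (day 7 against day 3). Sign changes gave log2 differences of -0.0013 (Ddit3, day 3 against healthy LSECs), 0.012 (Hspa5, day 3 against day 1), 0.10 (Dnajb1, day 7 against day 1), 0.023 (Ddit3, day 7 against day 1) and 0.020 (Xbp1, day 7 against day 3). Without a filter on low counts, 157 genes were called (day 7 against day 3). Log2 differences that changed sign were -0.17 (Ddit3, day 3 against healthy LSECs) and -0.14 (Ero1l, day 3 against healthy LSECs). With at least 10 counts in every sample, the number of members called was 1 (day 1 against healthy LSECs). The sign of the log2 difference changed to -0.016 (Ddit3, day 3 against healthy LSECs), 0.10 (Dnajb1, day 7 against day 1), 0.031 (Ddit3, day 7 against day 1) and 0.064 (Xbp1, day 7 against day 3). With only the 2 compared groups in the fit, the number of genes called was 2327 (day 1 against healthy LSECs), 1108 (day 3 against healthy LSECs), 3156 (day 7 against healthy LSECs), 189 (day 3 against day 1), 4465 (day 7 against day 1) and 1 (day 7 against day 3). The number of members called was 1 (day 1 against healthy LSECs). Sign changes gave log2 differences of -0.087 (Ddit3, day 3 against healthy LSECs), -0.038 (Ero1l, day 3 against healthy LSECs) and -0.0049 (Trib3, day 7 against day 3). With library size as the only scaling the share of higher calls went from 64.2% to 75.1% (day 3 against healthy LSECs), from 68.8% to 86.8% (day 7 against healthy LSECs) and from 45.3% to 56.0% (day 7 against day 1), and the median of all genes shifted by 0.12 (log2) for day 7 against day 1.

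The replicate numbers of the labels showed no sign of pairing the samples. Deviations from the mean of so small a group depend on each other, so this check cannot exclude a shared batch. The deviations from the group means of same-numbered samples correlated between -0.23 and 0.10 over 18 pairs, with 0 of them over 0.1, and those of other pairs between -0.26 and 0.24 over 54 pairs. With the replicate number as a block (replicate block), the number of genes called was 594 (day 1 against healthy LSECs), 435 (day 7 against healthy LSECs), 311 (day 3 against day 1), 1084 (day 7 against day 1) and 244 (day 7 against day 3). The number of members called was 0 (day 7 against healthy LSECs) and 0 (day 7 against day 1). Log2 differences that changed sign were 0.088 (Eif2ak3, day 1 against healthy LSECs), -0.058 (Ddit3, day 3 against healthy LSECs), -0.84 (Hspa1a, day 7 against healthy LSECs), -0.89 (Hspa1b, day 7 against healthy LSECs), -0.070 (Hspa1b, day 3 against day 1) and 0.19 (Ddit3, day 7 against day 1).

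Leaving out each of the 14 samples in turn gave 164 to 1845 genes called (day 1 against healthy LSECs), 946 to 3314 genes called (day 3 against healthy LSECs), 193 to 2166 genes called (day 7 against healthy LSECs), 49 to 932 genes called (day 3 against day 1), 146 to 3630 genes called (day 7 against day 1) and 26 to 1652 genes called (day 7 against day 3). The number of members called ran from 0 to 1 (day 1 against healthy LSECs), from 0 to 1 (day 3 against healthy LSECs), from 0 to 1 (day 7 against healthy LSECs), from 0 to 1 (day 3 against day 1), from 0 to 2 (day 7 against day 1) and from 0 to 1 (day 7 against day 3). For day 1 against healthy LSECs, log2 differences whose sign changed ran from -0.0027 to 0.38 for Atf4. For day 3 against healthy LSECs, log2 differences whose sign changed ran from -1.83 to 0.15 for Hspa1a, from -0.29 to 0.14 for Ddit3, from -0.27 to 0.038 for Hsf1, from -0.15 to 0.11 for Ero1l and from -1.93 to 0.072 for the sum of Hspa1a and Hspa1b. For day 7 against healthy LSECs, log2 differences whose sign changed ran from -1.96 to 1.29 for Hspa1a, from -2.09 to 1.41 for Hspa1b, from -0.44 to 0.43 for Hsp90aa1 and from -2.02 to 1.35 for the sum of Hspa1a and Hspa1b. For day 3 against day 1, log2 differences whose sign changed ran from -0.41 to 0.20 for Hspa5. For day 7 against day 1, log2 differences whose sign changed ran from -0.84 to 0.031 for Hsp90aa1, from -0.60 to 0.23 for Dnajb1, from -0.72 to 0.14 for Hspa5 and from -0.27 to 0.21 for Ddit3. For day 7 against day 3, log2 differences whose sign changed ran from -1.16 to 2.22 for Hspa1a, from -1.05 to 2.49 for Hspa1b, from -0.23 to 0.60 for Dnajb1, from -0.58 to 0.14 for Hspa5, from -0.33 to 0.12 for Hsp90b1, from -0.085 to 0.28 for Xbp1, from -0.11 to 0.48 for Trib3 and from -1.11 to 2.34 for the sum of Hspa1a and Hspa1b.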
